A study of Mus musculus with 96 samples.

Results

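Of 96 single cells sorted from the mouse uterus with an antibody to CD326 (EpCAM), 88 had a Gapdh cycle threshold (Ct) below 18, and 18 of those 88 had no Ct for the Epcam assay. Ct is the PCR cycle at which product is seen, so a later Ct means less template, and 40 in the deposited table stands for no Ct. The 18 cells were chosen by their own Epcam value (Ct of 28 or above) and are set against the other 70 cells, whose Epcam Ct was below 28. No cell lay near the limit: Epcam was at 40 in all 18 cells, whereas in the 70 it ran from 15.2 to 24.9 with a median of 20.9. The last kept cell by Gapdh had a Ct of 16.5 and the nearest cell left out 18.3, with 8 cells left out in all.

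All cells came from mice at postnatal day 7 and carry the same labels, with no treatment, genotype, strain or animal given, and all were taken as CD326-positive after type I collagenase digestion. Each cell was lysed, preamplified and measured with 96 assays on a Fluidigm Biomark chip, a microfluidic quantitative PCR array. Because the labels name no animals, the cells are 1 sample and are not replicates, so no p-value is given. Shares carry exact (Clopper-Pearson) 95% intervals, which cover counting error only. The sort reads EpCAM protein at the cell surface and the assay reads its RNA, and no second Epcam assay was on the panel.

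EpCAM is an adhesion protein of simple epithelia, and E-cadherin and the keratins KRT8, KRT18 and KRT19 are others of the genes by which such cells are recognised. At this age the uterine epithelium is a simple layer over a mesenchyme, and the WNT ligand gene Wnt7a is a known marker of that epithelium. Endoglin, the product of Eng, is a co-receptor for TGF-beta family ligands best known from endothelial and stromal cells, and Tbx3 encodes a T-box transcription factor.

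Cells without Epcam detected fewer of the other 95 assays. The number ran from 22 to 60 with a median of 50 in the 18 cells, and from 26 to 77 with a median of 55 in the 70. The ranges overlap widely, but 2 of the 18 cells lay below all 70 and 21 of the 70 lay above all 18. Gapdh, by which the cells were kept, had a median Ct of 13.6 (11.0 to 15.6) against 13.0 (9.43 to 16.5). Actin, on which no filter was set, had a median Ct of 15.1 (10.9 to 17.2) against 13.1 (9.64 to 16.8). In cells 33 and 52 Epcam lay within a long run of neighbouring assays without a Ct, and results without these 2 cells are given further on. The source of the lower number of detected assays in cells without Epcam was not tested. To allow for that number (the depth of a cell), each share below is set beside an expected share. That is the share of the same gene in the 10 cells with Epcam nearest in the number of other detected assays, averaged over the 18 cells. For the 2 cells below all 70 the nearest cells detected more assays than they did, so the match is not exact. A gene counts as lower or higher when the observed share differs from the expected one by 25 percentage points or more.

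By that rule 11 of the 94 assays other than Epcam and Gapdh were lower in cells without Epcam (11.7%) and 5 were higher (5.32%). Since the cells were selected on a value of the same table, these counts describe them and carry no test, and a missing Ct does not show that a transcript was absent. The median difference over the 94 assays was -4.44 percentage points, with 55 assays below 0, 35 above and 4 at 0. The 11 lower assays were Cd55, Cd9, Itga6, Wnt7a, Pax2, Itga3, Anpep, Hprt, Insr, Klf4 and Ncam1. The 5 higher ones were Eng, Tbx3, Sox2, Il17ra and Lgr6. Hopx, a homeobox-like gene, lay just outside at -24.997 points (3 of 18 cells).

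**Figure D1:**
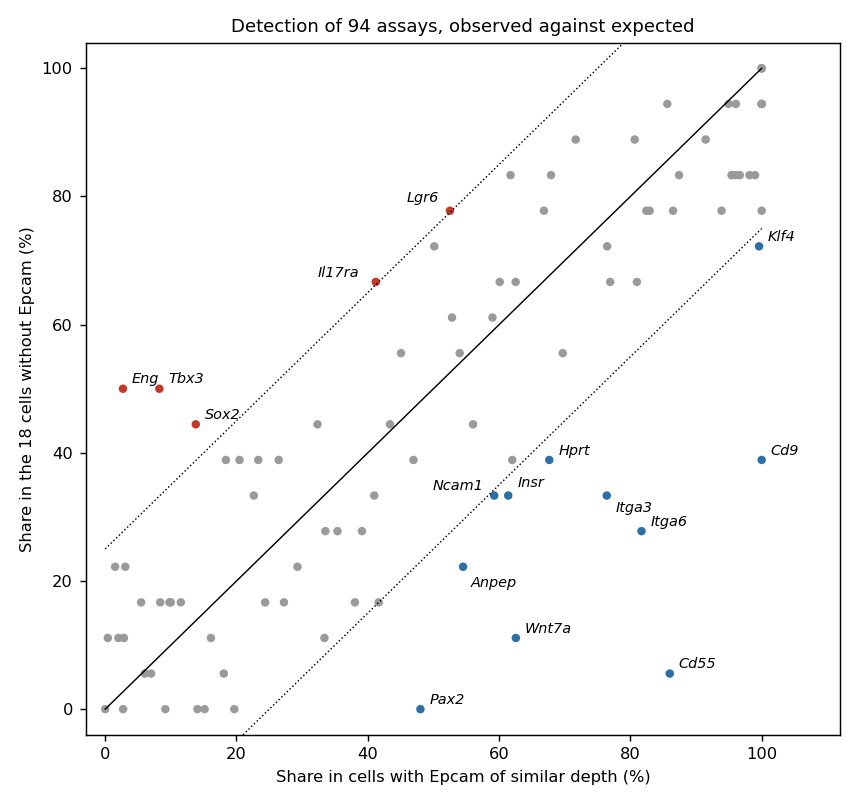
Share of the 18 cells without Epcam that detected each of 94 assays (vertical axis, percent) against the share in cells with Epcam of similar depth (horizontal axis, percent). Each point is an assay, the solid line marks equal shares and the dotted lines 25 percentage points on either side; the 11 lower assays (blue) and 5 higher assays (red) are named, with Cd55 and Cd9 farthest below and Eng and Tbx3 farthest above.

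Cd55 and Cd9, both genes of cell surface proteins, were the assays farthest below their expected share. Cd55, which encodes a GPI-anchored regulator of complement, was detected in 1 of 18 cells without Epcam (5.56%, interval 0.14 to 27.3%), at a Ct of 21.2. In the 70 cells with Epcam it was detected in 59 (84.3%, interval 73.6 to 91.9%), at Ct 17.3 to 24.0 with a median of 19.8. Against 86.0% expected from the cells nearest in detected assays, the difference was -80.4 points. Cd9, which encodes a tetraspanin, was seen in 7 of 18 (38.9%, interval 17.3 to 64.3%) and in 68 of 70 (97.1%), and every one of the nearest cells detected it, so the difference was -61.1 points. Its Ct in the 7 cells ran from 16.8 to 22.4 with a median of 20.4, and in the 68 from 14.1 to 23.3 with a median of 17.4.

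The integrin and Müllerian duct genes on the lower list followed. Integrins are adhesion receptors, and Itga6 and Itga3 encode alpha subunits that bind laminin of the basement membrane. Itga6 was detected in 5 of 18 cells against 62 of 70, a difference of -53.9 points from the expected 81.7%. Itga3 was detected in 6 of 18 against 54 of 70, a difference of -43.1 points. The other 6 of 8 measured integrin genes stayed within 25 points, beside 11.7% of all assays lower, among them Itgb1, the common beta subunit, in 15 of 18 cells (-12.1 points).

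Wnt7a was detected in 2 of 18 cells without Epcam (11.1%, interval 1.38 to 34.7%) and in 50 of 70 with it (71.4%), with 62.6% expected and a difference of -51.4 points. Pax2, a paired-box gene of the embryonic duct, was detected in 0 of 18 and in 43 of 70 cells with Epcam. A count of 0 among 18 leaves room for 16.7% of cells (3 counts), or 18.5% by the upper end of the exact interval. Its expected share was 48.0%. Of 7 measured Müllerian duct genes Wnt7a and Pax2 were lower and none was higher, beside 11.7% lower and 5.32% higher over all assays, and the list median was -7.06 points. Emx2, a homeobox gene of the duct, was at -7.06 points (4 of 18 cells) and Hoxa13 at -7.61 points (5 of 18). Hoxa11 was at 12.1 points (8 of 18), Hoxa10 at 19.2 (4 of 18) and Lhx1 at 10.7 (2 of 18).

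**Figure D2:**
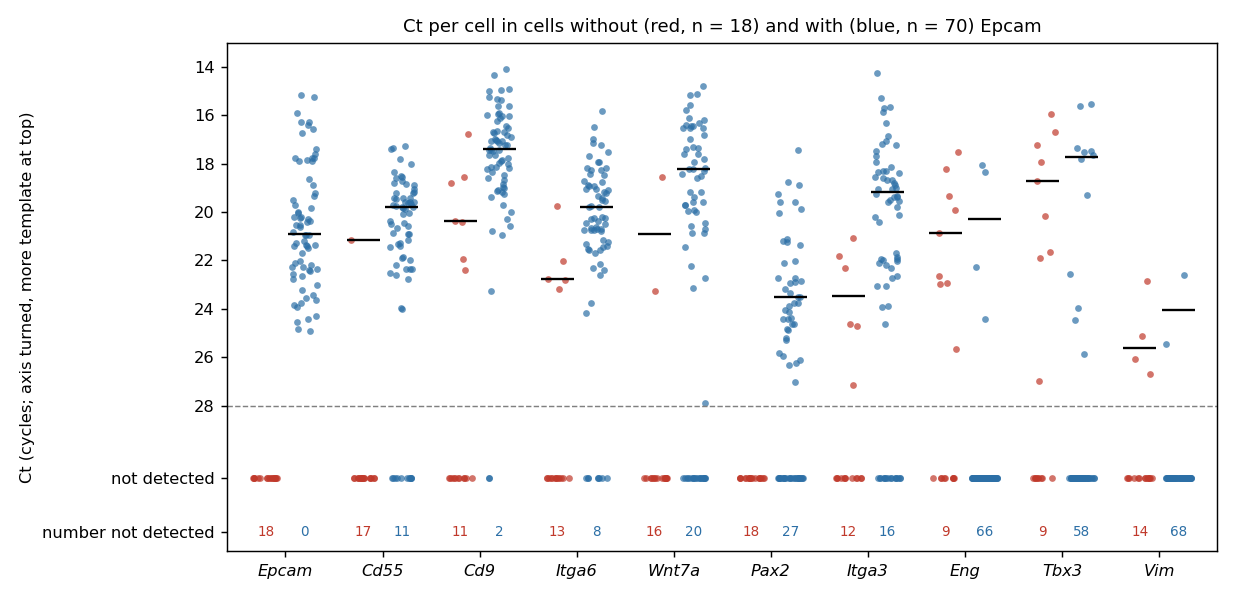
Ct of Epcam and 9 other genes in each cell without Epcam (red, n = 18) and with Epcam (blue, n = 70), on a turned vertical axis in cycles with the limit of 28 dashed; points in the lower row are undetected cells, counted beneath, and bars are medians of detecting cells. Cd55 is undetected in 17 of 18 red cells and 11 of 70 blue cells, whereas Eng is undetected in 9 red and 66 blue cells.

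Eng and Tbx3 were the assays farthest above expectation. Eng was detected in 9 of 18 cells without Epcam (50.0%, interval 26.0 to 74.0%) and in 4 of 70 with it (5.71%), with 2.70% expected and a difference of 47.3 points. In the 9 cells its Ct was 17.5, 18.2, 19.3, 19.9, 20.9, 22.6, 22.9, 23.0 and 25.7, a range that overlapped that of the 4 cells with Epcam, 18.0 to 24.4. Tbx3 was detected in 9 of 18 (50.0%, the same interval) and in 12 of 70 (17.1%), with 8.25% expected and a difference of 41.8 points. Its Ct in the 9 cells was 15.9, 16.7, 17.2, 17.9, 18.7, 20.2, 21.7, 21.9 and 27.0, and in the 12 cells it ran from 15.5 to 25.9. Where either gene was detected, its Ct ranges with and without Epcam overlapped.

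The other higher assays were closer to the limit or to their expected share. Sox2, a transcription factor gene of stem and progenitor cells, was detected in 8 of 18 cells and 16 of 70. Against 13.8% expected the difference was 30.6 points, and in the 8 cells its Ct was 20.0 to 21.1. Il17ra, the gene of a receptor for interleukin 17, was detected in 12 of 18 and 36 of 70 (25.4 points), and Lgr6, a receptor gene for R-spondins, in 14 of 18 and 43 of 70 (25.3 points). Without the adjustment for depth, Sox2, Il17ra and Lgr6 differed by 21.6, 15.2 and 16.3 points, all under 25. Leaving out a single cell took Il17ra under 25 points in 9 of 18 cases and Lgr6 in 8 of 18. Among the lower assays the same happened to Ncam1 in 9 cases, Klf4 in 5 and Insr in 1 (without cell 11, -24.9 points). The other 11 of the 16 stayed past 25 points whichever cell was left out.

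The reference gene Hprt, a purine salvage gene, was itself on the lower list. It was detected in 7 of 18 cells and 55 of 70, a difference of -28.8 points after the adjustment for depth. The part of RNA amount or quality in the other differences was not tested. Among the 7 and 55 cells that detected Hprt, Cd55 was found in 1 of 7 against 47 of 55, Cd9 in 3 of 7 against 53 of 55, and Pax2 in 0 of 7 against 40 of 55. Eng was found in 3 of 7 against 4 of 55 and Tbx3 in 3 of 7 against 8 of 55. The differences from the expected share were -75.9, -57.1, -71.0, 36.5 and 40.5 points in that order. Of the other assays past 25 points over all cells, Itga6, Wnt7a, Itga3, Insr, Sox2 and Lgr6 were also past it among these cells, with Lgr6 at 25.1 points. Anpep (-16.2 points), Klf4 (-13.2), Ncam1 (-11.5) and Il17ra (12.6) were not. The excess of stromal, endothelial and immune markers per cell over the expected number was 0.91 of 12 in all 18 cells and 0.14 in these 7. Eng, itself past 25 points, is 1 of the 12 markers.

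The 5 measured members of the epithelial list other than Epcam were still detected in most cells without Epcam, and none passed 25 points. Krt8, Krt18 and Krt19 were each detected in 17 of 18 cells (94.4%, interval 72.7 to 99.9%), Cdh1 in 15 (83.3%, interval 58.6 to 96.4%) and Cd24a, a surface glycoprotein gene, in 14 (77.8%, interval 52.4 to 93.6%). In the 70 cells with Epcam, Krt18, Krt19 and Cd24a were detected in all, and Krt8 and Cdh1 in 67 each. From the expected share Cd24a differed by -22.2 points, close to the limit, and Cdh1 by -12.7. Krt18 and Krt19 differed by -5.56 points each and Krt8 by -1.63. All 5 genes were found in 12 of 18 cells without Epcam and in 65 of 70 with it, and no cell had fewer than 3. The mean in the 18 cells was 4.44 against 4.92 expected from the nearest cells. Detection of these genes does not by itself settle the type of the 18 cells, which was not tested. Wnt7a was in 2 of them. Pecam1, an endothelial gene, was detected in all 88 cells and so does not tell the groups apart.

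Krt18, Cd24a and Cdh1 came later relative to Gapdh where they were detected. In each cell the Gapdh Ct was subtracted, and medians were compared over detecting cells for the 63 assays with at least 5 such cells in each group. A difference of 2 cycles or more was reached by 5 assays in the later direction (7.94%) and by 1 in the earlier direction (1.59%), around a median over assays of -0.15 cycles. The 5 later assays were Krt18, Cd24a, Cd9, Cdh1 and Itga3.

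Krt18, which encodes the acidic partner of KRT8 in simple epithelium, came 2.20 to 10.1 cycles after Gapdh in 17 cells without Epcam, with a median of 5.65 (SD 2.32). In the 70 cells with Epcam it ran from -3.03 to 8.82 cycles, with a median of 1.69 (SD 2.64). The difference of medians was 3.97 cycles, and all 17 cells lay later than the median of the cells with Epcam, although the ranges overlapped. For Cd24a the medians were 5.68 (SD 2.10) and 2.45 (SD 1.76), a difference of 3.23 cycles. Cdh1 gave 7.42 (SD 1.86) and 4.36 (SD 1.63), a difference of 3.06 cycles, with all 15 detecting cells later than the median of the cells with Epcam. Each of these 3 differences was larger than the SD over cells in either group. Krt19 differed by 1.28 cycles and Krt8 by 0.28 cycles, less than their SDs in cells with Epcam of 1.41 and 1.62, so the 3 keratin genes differed by unequal amounts.

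**Figure D3:**
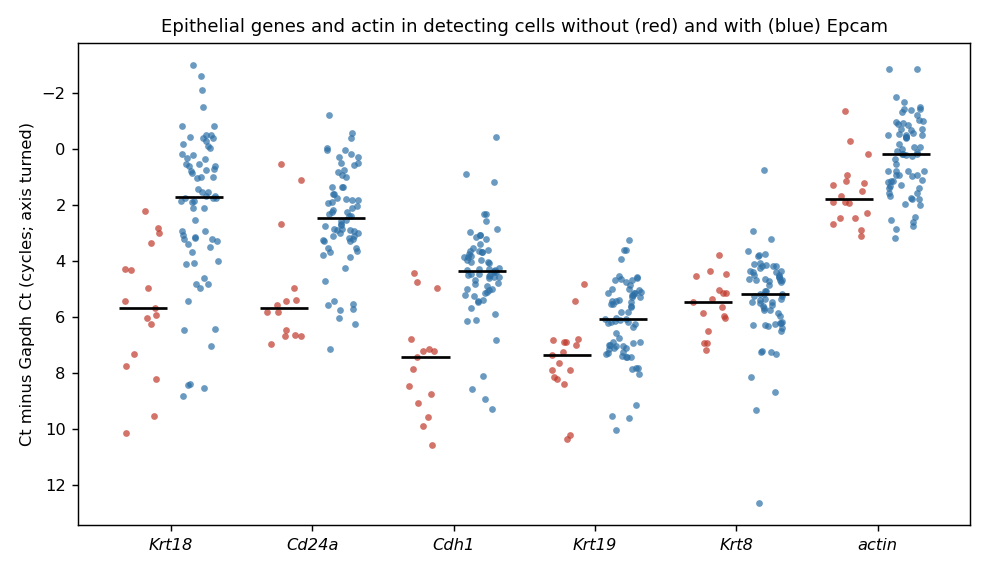
Ct minus Gapdh Ct (cycles, vertical axis turned so that more template is at the top) of 5 epithelial genes and actin in detecting cells without (red) and with (blue) Epcam; each point is a cell and each bar a median. Medians of Krt18, Cd24a and Cdh1 lie 3.97, 3.23 and 3.06 cycles later in red, and those of Krt8 differ by 0.28.

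Actin differed as well. Its median lay 1.77 cycles after Gapdh in the 18 cells and 0.17 in the 70, a difference of 1.60 cycles. With actin as the reference the median over assays therefore shifted from -0.15 to -1.36 cycles. Krt18 was then 3.05 cycles later, Cd9 1.23, Cdh1 1.13, Cd24a 1.12 and Itga3 0.49, and only Krt18 passed 2 cycles. Set against the 10 detecting cells with Epcam nearest in detected assays, with Gapdh as the reference, Krt18 was 3.02 cycles later, Cd24a 3.24, Cdh1 3.75, Cd9 2.57 and Itga3 2.61.

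The 1 assay that came earlier by 2 cycles or more was Hoxa11, a homeobox gene needed for uterine development. In the 8 cells without Epcam that detected it, its Ct was 16.4, 17.2, 17.9, 20.6, 21.0, 24.1, 25.0 and 27.5, against 17.2 to 27.9 with a median of 25.6 in 20 cells with Epcam. The difference relative to Gapdh was -3.18 cycles, with SDs of 4.38 and 2.69, so it was smaller than the spread among the 8 cells. Sox2 (-1.94), Il17ra (-1.86) and Sall4 (-1.52) followed on the earlier side, below the limit of 2 cycles.

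Of 12 measured stromal, endothelial and immune markers, 2 were higher (Eng and Il17ra), none was lower and the list median was 0.78 points, beside 5.32% higher and 11.7% lower over all 94 assays. Cells without Epcam detected 2 to 10 of the 12 with a median of 7, and cells with Epcam 3 to 11 with a median of 7. The mean was 6.72 against 5.81 expected from the nearest cells. Eng, the assay farthest above its expected share (47.3 points), is 1 of the 12 and adds to that excess. Vim, the mesenchymal intermediate filament gene, was detected in 4 of 18 cells (22.2%, interval 6.41 to 47.6%) against 2 of 70, a difference of 20.7 points, at the late Ct of 22.9 to 26.7. Thy1, a stromal surface gene, was detected in 2 of 18 and 14 of 70 (-4.99 points) and Mcam, of pericytes and vessels, in 1 of 18 and 13 of 70 (-12.5 points). In the 2 cells Thy1 was at Ct 18.8 and 19.4, and in the 14 it ran from 18.5 to 27.4 with a median of 23.9. With 2 cells, fewer than the 5 required, its level was not compared. Of the other stromal markers, Nt5e was at -13.3 points (15 of 18 cells), sma at -14.3 (12 of 18) and Mme at -4.23 (13 of 18).

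Of 3 endothelial markers 1 was higher (Eng, which is also on the stromal list), beside 5.32% of all assays. Of 3 immune markers 1 was higher, beside the same share (Il17ra, which fell under 25 points in 9 of 18 omissions of a cell). Pecam1, the endothelial adhesion gene, was detected in all 88 cells, at a median Ct of 15.3 without Epcam and 15.2 with it. Its detection therefore did not separate the groups and added 1 to the marker count of every cell. Cd34, an endothelial and progenitor gene, was in 10 of 18 and 39 of 70 (10.5 points). Ptprc, the pan-leukocyte phosphatase gene, was detected in 10 of 18 and 47 of 70 (1.56 points), and Cd40, a costimulatory receptor gene, in 15 of 18 and 51 of 70 (21.6 points). Whether the cells with these markers account for the differences in Eng and Tbx3 was not tested.

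The 3 steroid receptor and cycling genes lay above their expected share without passing 25 points. Esr1, which encodes estrogen receptor alpha, was present in 16 of 18 cells and 56 of 70 (17.2 points), Pgr, the progesterone receptor gene, in 11 of 18 and 44 of 70 (8.28 points), and Mki67, a gene of cycling cells, in 7 of 18 and 22 of 70 (18.4 points). Of 11 WNT genes 1 was lower (Wnt7a) and 1 higher (Lgr6), near the 11.7% and 5.32% of all assays. The list median was -8.72 points. Lgr5, a stem cell marker and R-spondin receptor gene, was in 0 of 18 against 19 of 70 (-19.7 points). Fzd7, a WNT receptor gene, was in 17 of 18 and 66 of 70 (-0.52 points), and Ctnnb1 (beta-catenin) in 15 of 18 and 69 of 70 (-15.7 points).

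No gland gene passed 25 points, and of the 3 basal genes only Itga6 did, beside 11.7% of all assays lower. That share also stands beside the lower members of the lists that follow. Foxa2, a forkhead gene known from the uterine glands, gave a Ct in 3 of 18 cells and 4 of 70 (8.28 points). Sox9 was in 5 of 18 and 31 of 70 (-5.76 points), Aldh1a1 in 0 of 18 and 13 of 70 (-14.1 points), Krt15 in 8 of 18 and 46 of 70 (-11.6 points) and Trp63 in 0 of 18 and 6 of 70 (-2.72 points). Of the 5 growth factor receptor genes Insr, the insulin receptor, was lower with 6 of 18 and 48 of 70 (-28.1 points). Igf1r was in 17 of 18 and 70 of 70, Kit in 15 of 18 and 62 of 70, and Mst1r in 7 of 18 and 19 of 70 (20.5 points). Of 4 surface peptidases Anpep was lower (4 of 18 against 36 of 70, -32.3 points), Dpp4 was at -21.4 points, Mme at -4.23 and Enpep at 6.57.

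Of 7 pluripotency genes 1 was lower and 1 higher, beside 11.7% and 5.32% of all assays. Klf4, also a gene of differentiating epithelium, was in 13 of 18 and 69 of 70 cells (-27.4 points), beside the higher Sox2. Nanog was in 15 of 18 and 62 of 70 (-4.08 points), Sall4 in 13 of 18 and 42 of 70 (22.1 points). Among neural progenitor genes Ncam1, an adhesion gene, was lower (6 of 18 against 44 of 70, -25.9 points), Msi1 was at -23.1 points and Nes, an intermediate filament gene, was in 0 of 18 against 23 of 70 (-15.1 points). Of 7 adult stem cell genes none passed 25 points, with Prom1 at -22.3 points (2 of 18) and Abcg2 at 15.6 (7 of 18). The Polycomb genes Bmi1 (all 88 cells) and Ezh2 (12 of 18 and 49 of 70, 4.14 points) did not differ by that size.

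Counted per cell over the 6 assays farthest below expectation (Cd55, Cd9, Itga6, Wnt7a, Pax2 and Itga3), picked from this same contrast and so given as a description, 7 of the 18 cells detected none, 5 detected 1 and 4 detected 2. Cell 33 detected 3 and cell 40 detected 5. Of the 70 cells with Epcam, 27 detected all 6, 22 detected 5, and none detected 0. The medians were 1 and 5, and 5 of the 70 cells were at 2 or fewer.

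**Figure D4:**
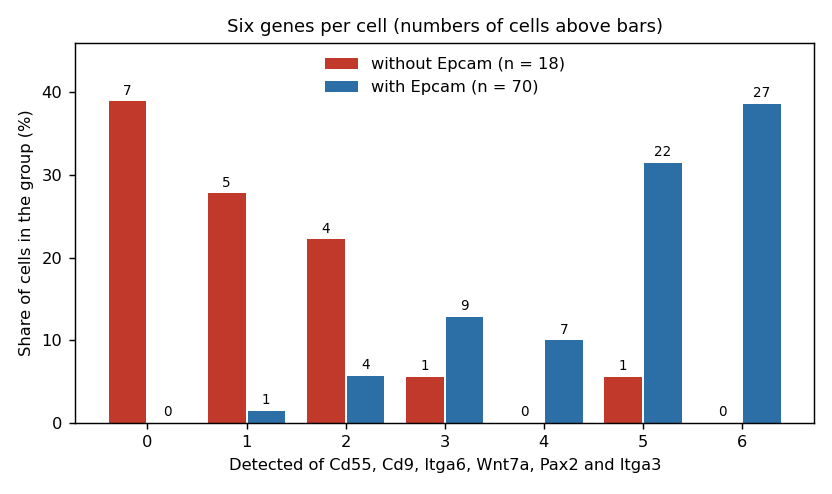
Share of cells (vertical axis, percent of each group) by how many of the 6 genes farthest below expectation they detected (horizontal axis), in cells without (red, n = 18) and with (blue, n = 70) Epcam. Numbers of cells stand above the bars: 16 of the 18 red cells are at 2 or fewer and 49 of the 70 blue cells at 5 or 6.

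Of the 9 cells with Eng, 7 also detected Tbx3 (cells 8, 11, 32, 45, 57, 58 and 81). Cells 3 and 50 had Eng alone, cells 34 and 84 had Tbx3 alone, and 7 cells had neither. Cd9 was detected in 2 of the 9 cells with Eng (cells 8 and 45) and in 5 of the 9 without it (cells 9, 22, 40, 43 and 84). Among the 18 cells Cd55 was found in only 1 and Wnt7a in only 2, and none of those had Eng or Tbx3. In the 70 cells with Epcam, Cd55 was found in 2 of the 4 with Eng and 7 of the 12 with Tbx3. All 9 cells with Eng detected Krt8, Krt18 and Esr1, and 7 of them detected Cdh1. The 9 cells without Eng were close to this, with Krt8 in 8, Krt18 in 8, Esr1 in 7 and Cdh1 in 8.

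Cells 57 and 81 had the earliest Eng of the 18 cells by raw Ct, without subtraction of Gapdh. Their Gapdh Ct was 11.0 and 14.5. Cell 57 had the earliest Gapdh of the 18 cells and the most detected assays (60), so early raw values there are not particular to Eng. In cell 57 Eng was at 18.2, Tbx3 at 15.9, Thy1 at 18.8 and Esr1 at 15.1, and in cell 81 the same genes were at 17.5, 17.2, 19.4 and 16.6. They were the only 2 of the 18 cells with Thy1 below the limit of 28 (cell 45 was at 28.2), and both had Hoxa10 and Hoxa11. Yet Krt8 was at 16.0 and 20.3, Krt18 at 21.1 and 18.8, and Krt19 at 18.9 and 19.3 in these cells. Cdh1 was at 21.5 in cell 57 and undetected in cell 81, and Vim was undetected in cell 57 and at 26.1 in cell 81.

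The epithelial genes can also be set side by side within the 18 cells. Krt18 came a median of 5.65 cycles after Gapdh in the 9 cells with Eng (4.26 to 10.1) and 4.64 in the 8 detecting cells without it (2.20 to 8.20), and the ranges overlapped. For Cdh1 the medians were 7.85 (7 cells) and 7.18 (8 cells), and for Cd24a 5.83 (7 cells) and 5.36 (7 cells). For Cd24a the cells without Eng were the more spread, with an SD of 2.64 against 0.64, whereas for Krt19 the cells with Eng were (1.70 against 0.80). Cells 22, 33 and 40 had the lowest Cd24a values relative to Gapdh, with raw Ct of 15.6, 13.6 and 17.1.

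**Figure D5:**
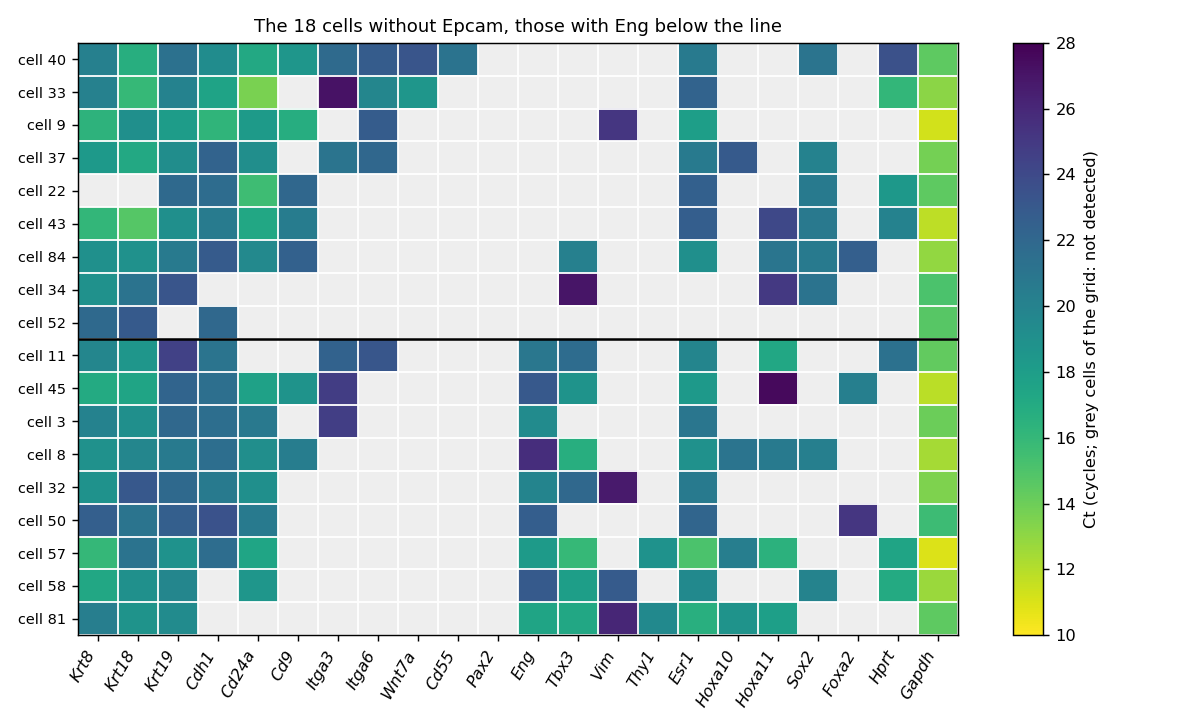
Ct (colour, cycles) of 22 genes (columns) in each of the 18 cells without Epcam (rows), with undetected values in grey and the 9 cells with Eng below the line. The keratin columns are filled in nearly every row, Pax2 is empty, and Tbx3 is filled in 7 of the 9 rows with Eng.

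Cells 33, 40 and 52 stood apart from the other 15. Cell 40 was the only one with Cd55 and, with cell 33, the only one with Wnt7a, and it lacked Eng and Tbx3. In cell 33 the Epcam assay lay in a run of 18 consecutive assays in the order of the table (the 21st to the 38th) without a Ct, Cd9 and Tbx3 among them, while its Krt18 was at 15.9 and Wnt7a at 18.5. In cell 52 the run holding Epcam was 14 assays long (the 20th to the 33rd), and that cell detected 24 other assays in all. In the other 16 cells that run held 1 to 6 assays, and in the 70 cells with Epcam the longest run anywhere was 12. Whether the missing values of cells 33 and 52 share a source was not tested.

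Without those 2 cells the contrast had the same direction, with Cd55 in 1 of 16 (-80.3 points), Cd9 in 7 of 16 (-56.2) and Pax2 in 0 of 16 (-50.6). Eng and Tbx3 were each in 9 of 16 (53.2 and 47.0 points). Klf4 (-18.3 points), Ncam1 (-20.1) and Il17ra (24.9) then fell under 25 points. The Klf4 and Ncam1 assays lay within the runs without a Ct of both cells. The other assays past 25 points over all cells stayed past it. By cell number, 12 of the 45 kept cells numbered 1 to 48 and 6 of the 43 numbered 49 to 96 lacked Epcam. In the lower numbers Cd55 was at -78.2 points, Cd9 at -50.0, Eng at 34.3 and Tbx3 at 35.5. In the higher numbers, with 6 cells, they were at -86.7, -82.1, 65.0 and 51.5. Sox2 was at 47.1 points in the lower numbers and 11.2 in the higher, Itga3 at -19.3 (6 of 12 cells) and -74.5 (0 of 6), and Itga6 at -45.9 and -79.4. These gaps were not tested.

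Of the 4 cells with both Epcam and Eng, cells 70 and 93 lacked Cd9, Cd55 and Wnt7a and had Tbx3 (Ct 15.6 and 19.3), with Epcam at 21.4 and 24.6 and Eng at 18.3 and 18.0. They were the only 2 of the 70 cells without Cd9. The other 2, cells 21 and 30, detected 6 and 5 of the 6 lower genes and no Tbx3. Tbx3 without Eng was detected in 10 of the 70 cells. Of these, cells 10, 59 and 82 also lacked Cd55 and Wnt7a but had Cd9, with Epcam at 23.4, 24.3 and 24.8. The rest of the 10 detected both Cd55 and Wnt7a.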

How the data were processed

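Raw Ct values of 96 assays in 96 cells were used as the authors deposited them, without normalization per the file headers, and the sources used here do not state the baseline or threshold. The authors also deposited fold changes (a ratio to Gapdh and then to cell 1), which the Ct table gave to within 6.55e-06 on the log2 scale and which served as an alternative. Columns were matched to cells by number. Assays were named through a RefSeq table of mouse genes (GRCm38.p6, for names only): 45 by symbol, 32 by synonym and 14 by CD or protein name. The other 5 (actin, sma, h2b, cd327, ssea1) kept their names. The ambiguous er was taken for Esr1, pr for Pgr and p63 for Trp63, and primers were not checked.

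Detection was a Ct below 28. Cells with a Gapdh Ct below 18 were kept, and the 10 nearest cells (ties included) gave expected shares. The members, gene lists and sizes of 25 points and 2 cycles were chosen with earlier results of these data known. Named genes are those past these sizes, the members of the epithelial, stromal, endothelial and immune lists, up to 4 of each other list, the 10 assays lowest and highest in share and the 5 in level; genes beyond that, and the pairs and the 6 genes counted per cell, were chosen after their values were seen. No p-value was computed. Alternatives were the Ct limit, the Gapdh filter, the depth adjustment, the reference gene and leaving out cells. The share calculation was tested on simulated data. Shares and medians came from pandas 2.3.3 and numpy 2.4.6, intervals from scipy 1.17.1, the logistic alternative from scikit-learn 1.9.0 and plots from matplotlib 3.10.9, all under Python 3.11.15.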

Additional observations from a re-analysis of the deposited data

Results flagged for a closer look

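The 8 cells left out for a late or missing Gapdh stand outside the comparison, yet Epcam was detected in 4 of them (50.0%, interval 15.7 to 84.3%). They are listed here because the signal lies in cells that the comparison does not use. Cd9 was detected in 2 of the 8, Cd55 and Tbx3 in 1 each and Eng in 0. These cells detected 9 to 29 other assays, so shares in them are not comparable with those of the 88.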

How the results depend on the processing

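Of 203 alternative values of the main results, 179 stayed within 1.5 times a count, the counting interval of a share, 1 SD over cells, 5 points or 0.5 cycles of the main value, and 24 moved. Cd55, Cd9, Itga6, Wnt7a, Pax2, Eng and Tbx3 were past 25 points in the same direction under all 15 alternatives run on every assay, Itga3 and Sox2 under 14, Ncam1 and Lgr6 under 8 and Il17ra under 7. None of the 16 was past 25 points in the opposite direction. Leaving out the deepest 10% of cells with Epcam was 1 of the 15 and gave differences equal to the main ones for all 16. It was therefore no check on them. The deposited folds, counted among the 203 values, restate the same Ct values and were no separate check either.

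Assays lower in cells without Epcam, 11 in all, numbered 17 both without the depth adjustment and against the 10 cells nearest in Gapdh Ct. The higher assays, 5 in all, numbered 2 (Eng and Tbx3) without the adjustment and 3 against the cells nearest in Gapdh Ct. Cd55 was at -78.7 points without the adjustment and at -86.1 against the cells nearest in Gapdh Ct. Higher assays numbered 8 with a Ct limit of 26, 9 in cells with Hprt and 3 when depth was counted without the assays past 25 points. Leaving out cells without Epcam one at a time gave 3 to 6 higher assays, with 3 without cell 3, 9, 43 or 52.

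Assays later by 2 cycles, 5 in all, numbered 1 with actin as reference, 3 with the mean of Gapdh and actin, 14 with undetected values at the limit and 2 in cells with Hprt. Those earlier, 1 in all, numbered 20, 4, 3 and 2 in the same order, 2 with a Ct limit of 24, 2 without the Gapdh filter, 5 in cells 1 to 48, 3 against cells nearest in detected assays and 1 to 2 with single cells left out (2 without cell 8, 43, 58 or 84). The median difference of -0.15 cycles was -1.36 with actin and -0.69 with the mean of both; the cause was not tested. The settings of Hprt, cell number, cells 33 and 52, depth without the assays past 25 points and levels at equal depth were chosen after seeing the data. No paired analysis was possible because all cells belong to 1 group. With 18 cells, a share of 50.0% has an interval of 26.0 to 74.0%, so differences near 25 points lie within counting error.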
